A study of Mus musculus with 6 samples.

Results

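The genes described here are the ligands, receptors and modulators of Wnt signalling, read in 6 whole mouse testes. The rule that picks them reads gene symbols and no measured value: every symbol beginning with Wnt, Fzd, Sfrp, Axin or Rspo and a digit, or with Dkk or Tcf7, together with Lrp5, Lrp6, Lef1, Lgr4, Lgr5, Lgr6 and Ctnnb1. This gave 54 genes among the 21786 symbols present in all 6 count tables, and 40 of the 54 passed the filter on low counts that left 15018 genes for testing. Poly(A) RNA was sequenced from 3 grossly enlarged testes of Stra8 -/- males (age 1 year) and from 3 testes of Stra8 +/+ males (age 2 to 4 months), and both genotypes had the strain background C57BL/6. The Stra8 gene encodes a factor induced by retinoic acid that germ cells need in order to enter meiosis. The design asks how mRNA levels in the enlarged testes, described in the labels as mostly type A spermatogonia-like cells, compare with wild-type levels. Age and enlargement followed genotype, so the effects of the 3 cannot be told apart. The labels name neither the allele of Stra8 nor any treatment, and the study's design text gives 3 males per genotype.

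Wnt proteins are secreted lipid-modified ligands that bring a Frizzled receptor together with the co-receptor Lrp5 or Lrp6. Binding halts the Axin-containing complex that otherwise marks beta-catenin, the product of Ctnnb1, for destruction, and beta-catenin then joins a TCF/LEF factor on DNA and switches its target genes on. R-spondins bind Lgr receptors and protect Frizzled from removal at the cell surface, while Sfrp and Dkk proteins act outside the cell, mostly as antagonists. In the testis, beta-catenin signalling is known to act in undifferentiated spermatogonia, and Wnt6 made by Sertoli cells is known as a ligand for them, whereas forced beta-catenin activity in Sertoli cells disturbs spermatogenesis.

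Reads in genes numbered 6733128 to 12425689 per library. Levels are read counts scaled to library size (CPM) with trimmed-mean factors (TMM), given with the SD over 3 libraries. A log2 fold change sets the Stra8-deficient level over the wild-type one, and the value after ± is its approximate SE. Most germ cell markers went with the labels: all 11 undifferentiated spermatogonial markers were called higher, and their summed level was 1570 to 2420 CPM against 82.5 to 86.8 CPM in wild type. All 10 spermatid markers were called lower, with sums of 4.38 to 11.9 CPM against 24700 to 28500 CPM, and so were 8 of 10 spermatocyte markers. Sycp1 (87.4 ± 9.85 CPM in Stra8-deficient, 89.3 ± 17.8 CPM in wild type) and Dmc1 (23 ± 4.03 and 23 ± 0.907 CPM) were not called. Sycp3, called lower, had a log2 fold change of only -0.39 ± 0.16. Of 13 Sertoli cell markers 11 were called lower and none higher, with a sum of 114 to 818 CPM in Stra8-deficient and 1790 to 2000 CPM in wild-type libraries. In bulk tissue, fewer cells of a type and less RNA per cell cannot be told apart. The third Stra8-deficient library was counted on another list of genes than the other 5, and leaving it out changed no call among the Wnt genes.

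The 5 stretches of promoter DNA shown here belong to members whose values carry the comparison: Dkkl1 fell furthest of all, Lef1 and Tcf7l2 are paralogs that were called in opposite directions, and so were Wnt3a and Wnt9a, neighbours on chromosome 11. Each is the 250 bases before the RefSeq transcription start (build GRCm38.p6, 5′ to 3′ on the strand of the gene), with capitals marking the GC box GGGCGG or its reverse complement CCGCCC, the only motif of those searched that occurred here.
Dkkl1, chr7:45211884-45212133, minus strand: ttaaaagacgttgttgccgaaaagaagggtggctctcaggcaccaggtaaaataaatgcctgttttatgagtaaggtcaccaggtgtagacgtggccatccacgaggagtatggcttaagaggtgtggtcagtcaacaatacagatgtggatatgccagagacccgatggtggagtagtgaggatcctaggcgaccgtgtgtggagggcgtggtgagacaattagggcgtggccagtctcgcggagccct
Lef1, chr3:131110047-131110296, plus strand: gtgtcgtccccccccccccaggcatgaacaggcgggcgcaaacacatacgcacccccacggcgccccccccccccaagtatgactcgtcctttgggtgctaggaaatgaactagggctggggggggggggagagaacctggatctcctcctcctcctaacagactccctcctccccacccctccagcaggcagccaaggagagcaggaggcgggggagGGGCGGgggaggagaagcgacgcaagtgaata
Tcf7l2, chr19:55741560-55741809, plus strand: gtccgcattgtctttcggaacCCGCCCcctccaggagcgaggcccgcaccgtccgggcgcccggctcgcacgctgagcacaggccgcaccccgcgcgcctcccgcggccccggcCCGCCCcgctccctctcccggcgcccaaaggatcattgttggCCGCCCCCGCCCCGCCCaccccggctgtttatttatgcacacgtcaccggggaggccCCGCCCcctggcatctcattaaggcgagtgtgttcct
Wnt3a, chr11:59290752-59291001, minus strand: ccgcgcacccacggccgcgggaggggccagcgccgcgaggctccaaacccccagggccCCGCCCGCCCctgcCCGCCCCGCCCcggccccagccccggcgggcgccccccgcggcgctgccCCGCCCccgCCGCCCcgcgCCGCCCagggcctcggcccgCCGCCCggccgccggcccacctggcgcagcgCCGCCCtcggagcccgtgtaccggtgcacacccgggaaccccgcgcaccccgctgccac
Wnt9a, chr11:59306680-59306929, plus strand: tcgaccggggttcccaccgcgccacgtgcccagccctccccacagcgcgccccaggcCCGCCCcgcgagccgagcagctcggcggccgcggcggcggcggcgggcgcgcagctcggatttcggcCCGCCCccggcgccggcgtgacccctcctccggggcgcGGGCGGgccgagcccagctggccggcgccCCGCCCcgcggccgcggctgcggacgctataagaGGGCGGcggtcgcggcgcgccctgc
The window of Dkkl1 held 0 GC boxes and was 52.4% G and C. Those of Lef1, Tcf7l2, Wnt3a and Wnt9a held 1, 6, 9 and 5, with overlapping boxes counted separately, and were 66.4%, 72.8%, 87.6% and 84.4% G and C. In GENCODE M21 (build GRCm38) Dkkl1 spans chr7:45207519-45212147, so its whole window lies inside that gene model. The other windows shown lie before the gene or overlap only its first bases. The contrast thus depends on which start of Dkkl1 is used. RefSeq windows were matched by symbol for 36 of the 54 members, taking the first window of a gene, and 27 of the 36 (75%) held a GC box, against 32.7% of all 32851 windows in the table. Dkk3, Lrp5, Lrp6, Sfrp1 and Lgr5 were among the members without a window. The share was 8 of 10 among members called higher and 7 of 10 among those called lower, a difference of 1 gene. The TCF/LEF core CTTTGA, or TCAAAG on the other strand, was in 3 of the 36 (8.33%) and in 13.8% of all windows. For both motifs the background was not reduced to the first window of a gene, so the sets compared were unlike. A match describes letters in this window and is no evidence of binding.

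Most Wnt pathway members differed between the genotypes, in both directions and about as often as other genes did. Of the 40 tested, 17 were called higher (42.5%), 14 lower (35%) and 9 were not called, at a Benjamini-Hochberg adjusted p under 0.05 in edgeR's quasi-likelihood test over all 15018 genes. Over all tested genes 39.0% were called higher and 36.7% lower, 75.8% together, so the shares among the members lie near the background. The 3 libraries of each genotype did not overlap for 32 of the 40 (80%), against 80.2% of all tested genes. The median log2 fold change was 0.12 for the 40 members and 0.11 for all tested genes, and the members ranged from -7.82 to 7.20.

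The balance of directions depended on how the libraries were scaled. Without any scaling factor (library size alone) 20 members were called higher and 10 lower, and relative to the Sertoli marker list 29 were higher and 2 lower, while all genes shifted as well: the median of all genes was -0.0088 with RLE size factors, 0.38 with upper-quartile factors, 0.73 without a factor and 3.5 relative to Sertoli markers. Higher genes made up 51.5% of all calls with TMM scaling, 63.6% with library size alone and 89.2% after Sertoli scaling. Of the 17 members called higher, 16 kept their call under each of these 4 scalings, Fzd7 being the exception, and of the 14 called lower, 10 did so under the first 3 scalings but Dkkl1 and Lgr5 alone under all 4. Of the 4, only RLE size factors put the median of all genes below the 0.11 of TMM scaling. The others raised values in general, so higher calls could hardly be lost under them. Statements below that other members were lower therefore hold relative to the bulk of genes and not relative to Sertoli cell transcripts.

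**Figure D1:**
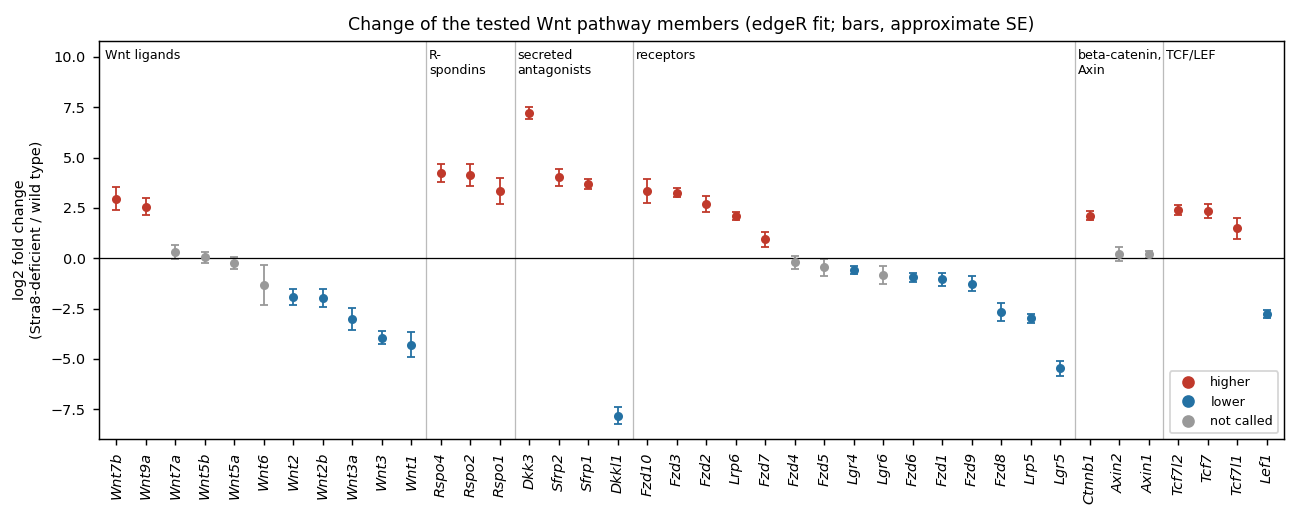
Log2 fold changes (vertical axis, Stra8-deficient over wild type, TMM scaling) of the 40 tested members, grouped by role; bars are approximate SE and colours give the call. R-spondins stood above 0 together, under each scaling tried, while ligands, receptors and TCF/LEF factors each held members on both sides of 0 with TMM scaling, and Dkk3 (7.20) and Dkkl1 (-7.82) marked the extremes. The R-spondins tested passed the low-count filter through their Stra8-deficient reads.

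The ligand gene that led in normal testis, Wnt3, was among the lower ones in Stra8-deficient testes. Of 11 tested ligands 5 were called lower, 2 higher and 4 were not called with TMM scaling, next to 36.7% lower and 39.0% higher of all tested genes. Wnt3, a ligand that activates beta-catenin signalling, was read at 56.5, 64.4 and 57.6 CPM in wild type and at 2.71, 2.76 and 5.89 CPM in Stra8-deficient testes. The groups stood far apart, with a log2 fold change of -3.94 ± 0.33 (edgeR, adjusted p = 5.59e-06). Wnt3a, the ligand most used to switch on beta-catenin in culture, was at 2.34, 3.25 and 5.32 CPM against 0.803, 0.191 and 0.335 CPM, a log2 fold change of -3.02 ± 0.57 (edgeR, adjusted p = 0.00103) that was -3.70 without the first Stra8-deficient library. Wnt1, the founding member of the family, had 20, 15 and 11 wild-type reads against 1, 0 and 3 (log2 fold change -4.29 ± 0.64, edgeR, adjusted p = 2.44e-04, and -5.24 without the third Stra8-deficient library). All 3 were thus low in every Stra8-deficient library. Wnt2 and Wnt2b, close paralogs known from lung development, both fell, Wnt2 from 4.30 ± 0.322 to 1.14 ± 0.406 CPM (log2 fold change -1.93 ± 0.40) and Wnt2b from 4.19 ± 0.454 to 1.06 ± 0.569 CPM (-1.99 ± 0.44). After scaling to Sertoli markers none of the 5 was called, and Wnt2 and Wnt2b changed sign.

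Wnt7b and Wnt9a, the 2 ligands called higher, were nearly silent in normal testis. With 12 and 15 wild-type reads in all, both passed the low-count filter through their Stra8-deficient reads. Wnt9a was at 0.625, 0.988 and 0.734 CPM in wild type and at 6.22, 4.10 and 3.88 CPM in Stra8-deficient testes (log2 fold change 2.56 ± 0.42, edgeR, adjusted p = 4.42e-04). Wnt7b, a ligand of epithelia and developing lung, was at 0.781, 0.565 and 0.550 CPM against 8.63, 2.86 and 3.62 CPM. The first Stra8-deficient library was the highest, and the log2 fold change of 2.96 ± 0.57 (edgeR, adjusted p = 0.00115) was 2.30 without it. Wnt5a, Wnt5b and Wnt7a were not called: Wnt5b, which mostly acts without beta-catenin, was at 10.5 ± 2.10 against 10.2 ± 0.172 CPM, Wnt5a at 4.60 ± 0.263 against 5.47 ± 1.03 CPM, and Wnt7a at 4.68 ± 0.929 against 3.73 ± 0.433 CPM. Their log2 fold changes were 0.04 ± 0.26, -0.25 ± 0.31 and 0.32 ± 0.34, and they moved with the scaling: with library size alone Wnt5b (0.65) and Wnt7a (0.94) were called higher and Wnt5a changed sign to 0.37.

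Wnt6 varied widely among the Stra8-deficient testes, with a highest level 186 times its lowest; among the other tested members with reads in all 3 libraries this ratio reached at most 5.33 (Tcf7l1). Its reads numbered 116, 1 and 265 in these libraries and 167, 183 and 125 in wild type, or 11.6, 0.0953 and 17.7 CPM against 26.1, 25.8 and 22.9 CPM. With TMM scaling all 3 Stra8-deficient libraries lay below all wild-type ones, yet the log2 fold change of -1.33 ± 1.00 was not called (edgeR, adjusted p = 0.259). Without the second Stra8-deficient library it was -0.80 and called (edgeR, adjusted p = 0.016), and without the third it was -2.11 and not called (edgeR, adjusted p = 0.0855). Over all 14 alternatives the value ranged from -2.87 (limma voom) to 1.04 (relative to Sertoli markers). The second library was also the lowest of the 3 in the summed level of 13 Sertoli markers (318, 114 and 818 CPM) and of 8 Leydig cell markers (340, 18.4 and 2800 CPM). It was likewise lowest in macrophage (222, 187 and 643 CPM), lymphocyte (13.2, 5.53 and 35.7 CPM) and spermatid markers (11.9, 4.38 and 8.11 CPM). It was not lowest in endothelial, epididymal, fibroblast, smooth muscle, spermatocyte or spermatogonial markers. The part of any of these cells in the level of Wnt6 was not tested.

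**Figure D2:**
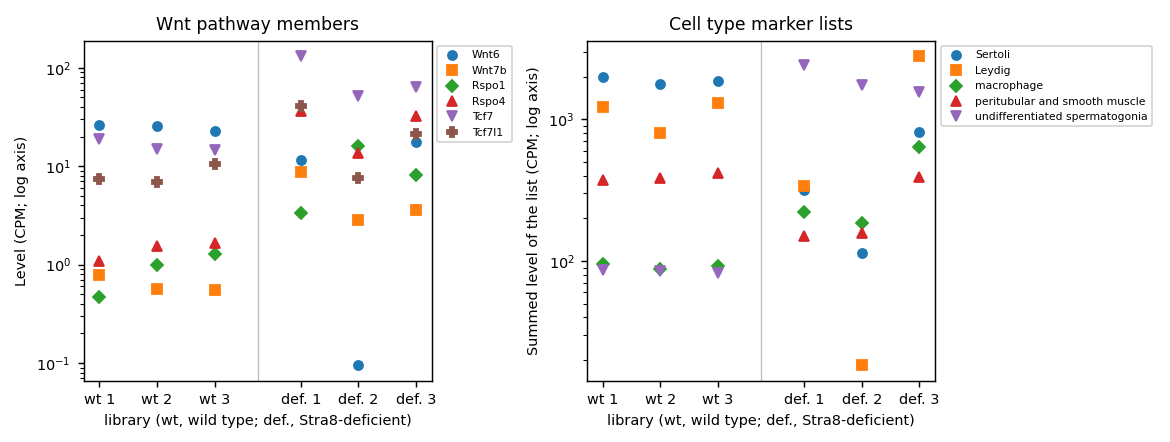
Left, levels in CPM (log axis) of 6 members in each library; right, summed CPM (log axis) of marker lists in the same libraries. Among Stra8-deficient libraries Wnt6 spans 0.0953 to 17.7 CPM and the Leydig marker sum 18.4 to 2800 CPM, both lowest in the second library. The Sertoli and macrophage sums were lowest there too.

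Several Wnt genes lie in pairs in the genome. Wnt3a and Wnt9a, 16.2 kb apart on chromosome 11 (GENCODE M21, build GRCm38) and transcribed away from each other, were called in opposite directions with TMM scaling. Wnt6 and Wnt10a lie 6.19 kb apart on chromosome 1 on the same strand; Wnt10a had 12, 3 and 12 Stra8-deficient and 4, 2 and 2 wild-type reads, too few to be tested. Wnt1 lies 11.7 kb from Wnt10b on chromosome 15, and Wnt3 lies 24.3 kb from Wnt9b on chromosome 11, and both of those partners were below the filter as well. No test compared neighbours with other pairs of genes.

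Per kb of exon, which allows genes to be compared with each other, the leading ligand changed. In wild type Wnt3 led at 19.3 CPM per kb, ahead of Wnt6 at 11.4 and Wnt5b at 3.84 CPM per kb. In Stra8-deficient testes Wnt6 had the highest mean, 4.48 CPM per kb, which rests on the first and the third libraries, next to Wnt5b at 3.94 CPM per kb, a difference within the spread of Wnt6. As a share of the summed per-kb level of all 19 ligands, a measure that library scaling cannot change, Wnt3 fell from 45.0 ± 2.13% to 7.69 ± 2.67%. The share of Wnt5b was 8.95 ± 0.198% in wild type and 25.0 ± 4.73% in Stra8-deficient testes, and that of Wnt9a 0.546 ± 0.117% and 9.28 ± 3.29%. With TMM scaling the level of Wnt5b itself was 10.2 CPM in wild type and 10.5 CPM in Stra8-deficient testes. Wnt6 held 27.8%, 0.434% and 40.0% in the 3 Stra8-deficient libraries against 26.5 ± 1.64% in wild type. Shares were compared by exact two-sided permutation, which cannot go below p = 0.1 for 3 against 3. This permutation p was found for Wnt3, Wnt5b and Wnt9a (adjusted p = 0.144 over 26 shares compared) and p = 0.9 for Wnt6. Only members with a large share in some library were compared. Wnt3 entered through its wild-type shares alone, and Wnt5b and Wnt9a through their Stra8-deficient shares alone.

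**Figure D3:**
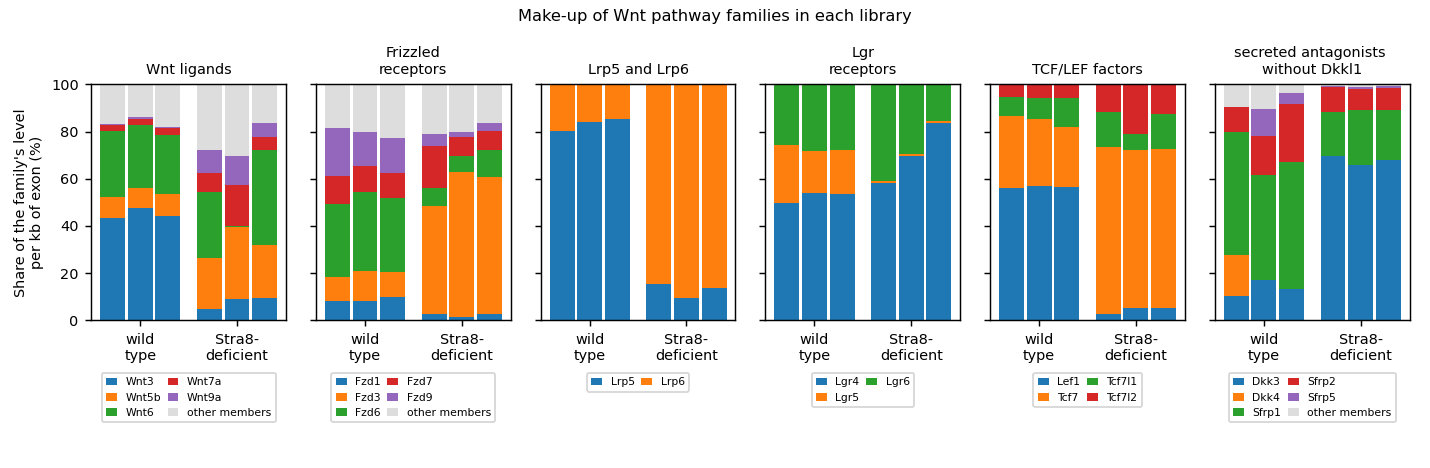
Share (%) of the summed level per kb of exon held by each member of 6 families, the secreted antagonists counted without Dkkl1, 1 bar per library, wild type at left and Stra8-deficient at right in each panel and the members not named in a legend together in grey. In all 3 Stra8-deficient libraries Lrp6, Tcf7, Fzd3 and, with Dkkl1 left out, Dkk3 led their families, where Lrp5, Lef1, Fzd6 and, with Dkkl1 left out, Sfrp1 led in all 3 wild-type libraries.

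R-spondins, which amplify Wnt signals, were higher in every Stra8-deficient library for each of the 3 tested. All 3 were called higher under each scaling tried. Over all tested genes 39.0% were called higher, and the groups did not overlap for 80.2%. Wild-type reads were few, 17, 4 and 27 in all for Rspo1, Rspo2 and Rspo4. Each of the 3 thus passed the low-count filter through its Stra8-deficient reads. A fall from such wild-type levels would have left them untested, so their shared direction was partly set by the filter. Rspo4, known from nail formation, was at 1.09, 1.55 and 1.65 CPM in wild type and at 36.1, 13.5 and 32.3 CPM in Stra8-deficient testes (log2 fold change 4.25 ± 0.45, a 19.0-fold difference; edgeR, adjusted p = 2.66e-05). Rspo2, known from limb and lung development, had 4 wild-type reads in all and 41, 53 and 38 Stra8-deficient reads (log2 fold change 4.12 ± 0.54, edgeR, adjusted p = 1.06e-04). Rspo1, best known for its part in ovary formation, was at 0.468, 0.988 and 1.28 CPM against 3.31, 16.2 and 8.10 CPM. For Rspo1 the second Stra8-deficient library was the highest, where Rspo4 was at its lowest among the 3, and the log2 fold change of Rspo1, 3.33 ± 0.66 (edgeR, adjusted p = 0.0014), was 2.60 without that library. Rspo3, with 5 reads against 1, was below the filter.

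Of all members Dkk3 rose furthest and Dkkl1, described below, fell furthest. The changes of Sfrp1 and Sfrp2 were smaller in size than that of the receptor gene Lgr5 (-5.47 ± 0.37). Dkk3, a Dickkopf-family glycoprotein whose effect on Wnt signalling differs between cell types, rose from 3, 8 and 5 reads to 1343, 1239 and 1860 reads. This was 0.838 ± 0.338 against 126 ± 8.45 CPM, even across the 3 Stra8-deficient testes, with a log2 fold change of 7.20 ± 0.29 (147-fold; edgeR, adjusted p = 6.46e-08). Sfrp1 and Sfrp2, secreted proteins that carry a Frizzled-like domain and can bind Wnt ligands, rose too. Sfrp1 was at 3.12, 3.81 and 4.95 CPM in wild type and at 47.4, 55.2 and 51.1 CPM in Stra8-deficient testes (log2 fold change 3.70 ± 0.24, edgeR, adjusted p = 1.16e-06). Sfrp2 was at 0.706 ± 0.394 against 11.4 ± 1.33 CPM (4.01 ± 0.44, edgeR, adjusted p = 3.25e-05). Markers of some other somatic cells were higher in the same libraries: fibroblast markers summed to 233 to 444 CPM against 119 to 141 CPM (3 of 6 called higher, 1 lower), macrophage markers to 187 to 643 against 87.8 to 95.4 CPM (5 of 7 higher) and endothelial markers to 51.8 to 80.1 against 23.2 to 31 CPM (2 of 5 tested higher). Peritubular and smooth muscle markers summed to 150 to 390 against 376 to 417 CPM (1 of 6 higher, 2 lower). Leydig cell markers summed to 18.4 to 2800 against 800 to 1300 CPM, with 0 of 8 called. None of these markers was at 0 in all libraries of a genotype, and their part in the antagonist levels was not tested. Dkk3, Sfrp1 and Sfrp2 varied little within the Stra8-deficient group, with a highest level 1.14 to 1.25 times the lowest. They kept their direction under each scaling, of which RLE size factors alone lowered their values.

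Dkkl1 carries the Dickkopf name through its likeness to Dkk3 but is known as a protein of the sperm acrosome, made in developing male germ cells. It was read 6103, 6696 and 5430 times in wild type, at 953, 945 and 996 CPM, and 60, 20 and 72 times in Stra8-deficient testes, at 6.02, 1.91 and 4.82 CPM. The log2 fold change was -7.82 ± 0.42 (226-fold; edgeR, adjusted p = 3.09e-07), the lowest of all members. Summed spermatid markers were at 11.9, 4.38 and 8.11 CPM in the same Stra8-deficient libraries, lowest in the second like Dkkl1. The name rule, not a role in the pathway, places it among the members: in wild type it alone stood at 612 CPM per kb, next to 42.5 for Ctnnb1, the second highest member.

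Among Frizzled receptors Fzd3 came to lead. Fzd3, known from planar polarity and axon guidance, was at 20.8, 23.9 and 20.2 CPM in wild type and at 176, 254 and 191 CPM in Stra8-deficient testes (log2 fold change 3.26 ± 0.21, edgeR, adjusted p = 9.86e-07). Its share of the per-kb level of the 10 Frizzled genes went from 11.3 ± 1.49% to 55.3 ± 8.13%, while that of Fzd6, which led in wild type, went from 31.7 ± 1.27% to 8.57 ± 2.59% (exact two-sided permutation p = 0.1 for each, adjusted p = 0.144). Fzd10 and Fzd2 rose from low levels, Fzd10 from 0.593 ± 0.393 to 6.02 ± 2.74 CPM (log2 fold change 3.33 ± 0.61) and Fzd2 from 1.18 ± 0.390 to 7.74 ± 1.48 CPM (2.68 ± 0.40). Fzd7, a receptor of stem and progenitor cells in other tissues, was called narrowly (0.94 ± 0.38, edgeR, adjusted p = 0.0482). Its Stra8-deficient levels were 23.9, 11.6 and 9.18 CPM against 7.76 ± 0.721 CPM, and the call was lost with RLE size factors, in DESeq2, and without any 1 library other than the third Stra8-deficient one, the value being 0.39 without the first.

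Fzd1, Fzd6, Fzd8 and Fzd9 were called lower with TMM scaling and changed sign after scaling to Sertoli markers. Fzd8 fell most, from 3.17 ± 0.644 to 0.495 ± 0.180 CPM (log2 fold change -2.67 ± 0.43, edgeR, adjusted p = 3.84e-04). Fzd6 was at 22.8 ± 0.614 against 11.8 ± 2.13 CPM (-0.95 ± 0.23), Fzd9 at 5.65 ± 1.47 against 2.37 ± 0.838 CPM (-1.26 ± 0.39) and Fzd1 at 5.45 ± 0.728 against 2.62 ± 0.566 CPM (-1.05 ± 0.34). The calls of these last 3 were lost with library size alone, that of Fzd1 also with upper-quartile factors and without any 1 wild-type library, and that of Fzd9 without the first wild-type library. Fzd4 and Fzd5 were not called (-0.21 ± 0.33 and -0.46 ± 0.41), and both changed sign with library size alone.

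The co-receptors Lrp5 and Lrp6, paralogs that both pair with Frizzled, were called in opposite directions with TMM scaling. Lrp5 was at 116, 150 and 163 CPM in wild type and at 22.8, 15.0 and 16.3 CPM in Stra8-deficient testes (log2 fold change -2.99 ± 0.23, edgeR, adjusted p = 3.36e-06). Lrp6 was at 40.3, 40.0 and 39.6 CPM against 172, 199 and 144 CPM (2.10 ± 0.18, edgeR, adjusted p = 6.22e-06). Neither pair of groups overlapped, as for 80.2% of all tested genes, and the wild-type levels of Lrp6 were nearly identical. Lrp6 made up 16.8 ± 2.63% of the per-kb level of the pair in wild type and 87.0 ± 3.11% in Stra8-deficient testes (exact two-sided permutation p = 0.1, adjusted p = 0.144). This share does not depend on the scaling, whereas the fall of Lrp5 by itself became 0.35, not called, after scaling to Sertoli markers.

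Lgr5, the R-spondin receptor that marks stem cells in the gut, fell to 4 reads per library. It was read 118, 104 and 78 times in wild type and 4 times in each Stra8-deficient library, at 15.8 ± 2.28 against 0.350 ± 0.0720 CPM (log2 fold change -5.47 ± 0.37, edgeR, adjusted p = 1.41e-06). It was lower and called under each scaling, at -2.34 after scaling to Sertoli markers. Lgr4, the most widely expressed of the 3, was at 23.4 ± 2.09 against 15.6 ± 1.54 CPM, called lower at -0.59 ± 0.21 (edgeR, adjusted p = 0.0279), but not with upper-quartile factors, with library size alone (0.03), in the fit with a replicate block or without any 1 wild-type library. Lgr6 was at 14.2 ± 1.30 CPM in wild type and at 12.3, 8.48 and 3.08 CPM in Stra8-deficient testes (-0.84 ± 0.45). It was not called by edgeR (adjusted p = 0.114), but was called lower by limma voom (-1.15, adjusted p = 0.0213), in edgeR with a replicate block (-1.01, adjusted p = 0.0407) and in edgeR without the first Stra8-deficient library (-1.33, adjusted p = 0.0312). Lgr4 held 52.3 ± 2.38% of the per-kb level of the 3 genes in wild type and 70.5 ± 12.9% in Stra8-deficient testes, and Lgr5 20.4 ± 3.72% and 0.887 ± 0.00681%. The share of Lgr4 rose although its own level was called lower with TMM scaling. The last SD rests on 4 Lgr5 reads in each library and leaves out counting error. R-spondins, given above, rose in the same libraries.

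Ctnnb1 was the most abundant member in Stra8-deficient testes per kb of exon, at 184 CPM per kb. Its levels were 223, 227 and 211 CPM in wild type and 1070, 1120 and 681 CPM in Stra8-deficient testes, a 4.34-fold rise with TMM scaling (log2 fold change 2.12 ± 0.23, edgeR, adjusted p = 2.68e-05). It was also called higher under the other 4 scalings, at 2.01 to 5.74, of which RLE size factors alone lowered the value (2.01). The protein also builds cell-cell junctions with cadherins, and its mRNA level says nothing of how much is in the nucleus. The scaffolds Axin1 and Axin2 were not called. Axin1 was at 103, 98.0 and 104 CPM against 145, 109 and 94.1 CPM (0.19 ± 0.19, edgeR, adjusted p = 0.391). Axin2, a target gene switched on by beta-catenin in many tissues and used as its readout, was at 7.65, 6.64 and 5.14 CPM against 10.5, 6.67 and 5.22 CPM (0.20 ± 0.36, edgeR, adjusted p = 0.625). The groups overlapped for both, and both changed sign without the first Stra8-deficient library, though Axin1 was called higher with library size alone (0.81) and both after scaling to Sertoli markers.

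Of the 4 DNA-binding partners of beta-catenin, 3 rose and Lef1 fell with TMM scaling, next to 39.0% higher and 36.7% lower of all tested genes. Lef1 was at 116, 101 and 108 CPM in wild type and at 16.7, 13.2 and 17.2 CPM in Stra8-deficient testes (log2 fold change -2.78 ± 0.19, edgeR, adjusted p = 1.36e-06; 0.56, not called, after scaling to Sertoli markers). Tcf7, which encodes TCF1, was at 18.7, 15.0 and 14.7 CPM against 131, 51.8 and 63.8 CPM (2.35 ± 0.35, edgeR, adjusted p = 2.45e-04). Tcf7l2, which encodes TCF4, was at 10.6, 10.4 and 10.6 CPM against 71.7, 54.8 and 39.8 CPM (2.39 ± 0.25, edgeR, adjusted p = 2.71e-05). In each case the groups did not overlap, as for 80.2% of all tested genes. Tcf7l1, which encodes TCF3, the most repressive of the 4, overlapped between genotypes: its Stra8-deficient levels were 40.7, 7.62 and 21.1 CPM and its wild-type levels 7.49, 6.92 and 10.5 CPM (1.48 ± 0.53, edgeR, adjusted p = 0.0285). That call was lost without the first Stra8-deficient library (0.76) and without the first or the second wild-type one. Lef1 went from 56.6 ± 0.423% to 4.41 ± 1.49% of the per-kb level of the 4, and Tcf7 from 28.1 ± 2.35% to 68.4 ± 2.19% (exact two-sided permutation p = 0.1 for each, adjusted p = 0.144). Lef1 entered this comparison through its wild-type shares alone.

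**Figure D4:**
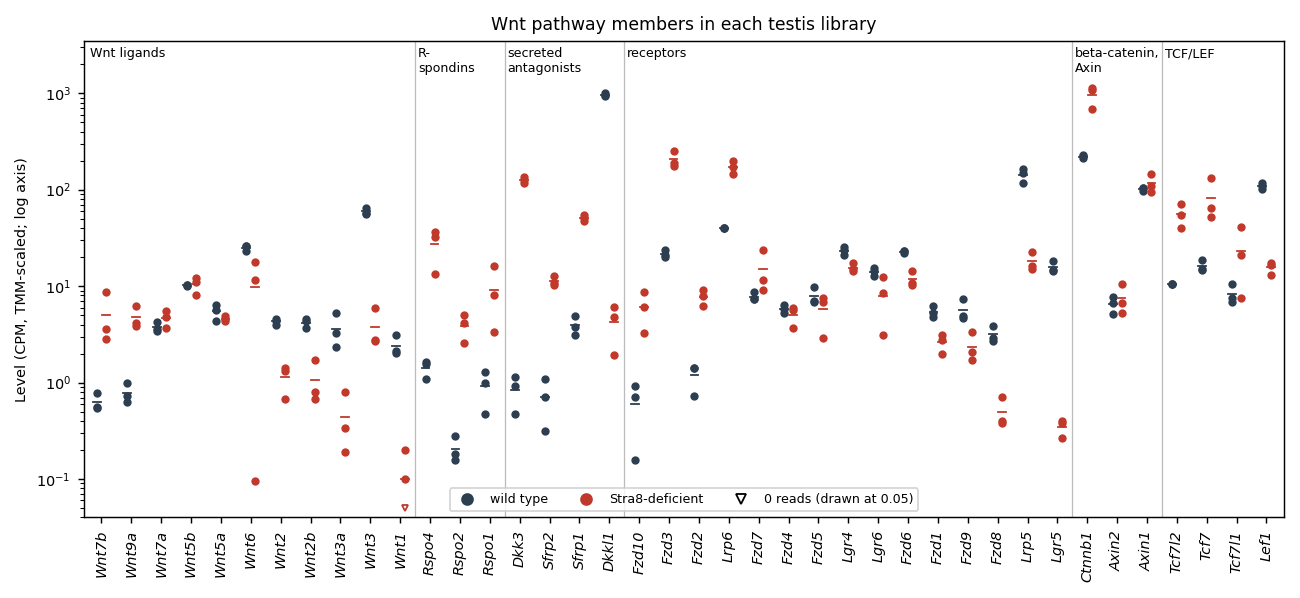
Level of each of the 40 tested members in every library (CPM, TMM-scaled, log axis), wild type in dark blue and Stra8-deficient in red, with a line at each group mean; members are grouped by role and ordered by fold change. Dkkl1 (945 to 996 CPM) was the highest member in wild type and Ctnnb1 (681 to 1120 CPM) in Stra8-deficient testes, and Wnt6 spans 0.0953 to 17.7 CPM among the Stra8-deficient libraries.

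The 14 members below the filter had at most 42 reads over the 3 Stra8-deficient and 17 over the 3 wild-type libraries. Called higher when no filter was applied were 4 of them. Dkk2, a Dickkopf antagonist of Lrp6, had 7, 18 and 12 reads against 0, 0 and 0, at least 6.60-fold higher when 3 counts are allowed over the wild-type group. Wnt16 had 4, 3 and 2 reads against 0 (at least 1.61-fold higher). Sfrp4 had 26 reads against 1, a ratio of 13.9 (95% counting interval 2.29 to 570), and Wnt4, a ligand needed for ovary and kidney formation, had 7, 4 and 31 reads against 2, a ratio of 11.2 (2.92 to 95.8). The other 10 were Dkk1, Dkk4, Rspo3, Sfrp5, Wnt8a, Wnt8b, Wnt9b, Wnt10a, Wnt10b and Wnt11, and none of them was called without the filter; of these Wnt8a had 3 reads against 0, Rspo3 5 against 1 and Dkk4 1 against 2. At this depth a count of 0 allows up to 0.243 to 0.447 CPM in a library before TMM scaling.

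The rest of the pathway, taken from 6 lists of genes outside the members, also went both ways. Of 72 tested genes 27 were called higher and 27 lower, close to the background of 39.0% and 36.7%, and 37 higher and 16 lower with library size alone. Cytoplasmic components split into 9 higher, 11 lower and 5 not called, led by the kinase genes Csnk1e (3.01 ± 0.35) and Csnk1g2 (-3.18 ± 0.24, which changed sign to 0.11 after scaling to Sertoli markers). Nuclear cofactors gave 6 higher and 2 lower of 13, with the corepressor Tle4 at 2.05 ± 0.21 and the corepressor Ctbp2 at -2.34 ± 0.23. Among other receptors and their regulators 4 of 14 were higher and 6 lower, with the pseudokinase receptor gene Ptk7 at 3.54 ± 0.42 and the polarity cadherin gene Celsr2 at -4.58 ± 0.50 (2.88 and -5.51 without the first Stra8-deficient library). Of 7 other inhibitors 1, Kremen2, a Dickkopf co-receptor, was higher (4.11 ± 0.43) and 5 were lower. Sost, an Lrp antagonist known from bone, had 1 Stra8-deficient read against 97, which is 181-fold lower (95% counting interval 31.8 to 7230). Porcn, the enzyme that adds the lipid to Wnt proteins, fell by 1.85 ± 0.30 on the log2 scale, and Notum, the enzyme that removes it, had 76 reads against 2 (ratio 20.3, 95% counting interval 5.44 to 171). Ctbp2 (1.20) and Porcn (1.42) changed sign after scaling to Sertoli markers, and Celsr2 was then not called.

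Genes often used as readouts of beta-catenin signalling were called in both directions. Of 10 tested targets outside the members 5 were higher, 2 lower and 3 not called, next to 39.0% higher and 36.7% lower of all tested genes. Sp5, a direct target in many tissues, had 111 reads against 1 (ratio 59.4, 95% counting interval 10.4 to 2370), and Sox9, also a Sertoli cell gene, fell by 4.00 ± 0.30 on the log2 scale, not called after scaling to Sertoli markers. Among the members, Axin2 was not called with TMM scaling, as given above.

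The authors' deposited table, made with edgeR, gave the same call and direction for 30 of the 31 members called here. The exception was Lgr4, with a false discovery rate corrected p of 0.0927 in the authors' deposited table. That table also called Lgr6 and Wnt6 lower (corrected p of 0.0486 and 0.025), and it called Dkk2, Sfrp4, Wnt16 and Wnt4 higher, 4 genes that were below the filter here.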

How the data were processed

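Whole-testis poly(A) RNA was sequenced in 6 libraries. The submitters' processing notes name TopHat, HTSeq, edgeR and build mm9. Their versions, the annotation and strand handling were not stated in the labels. Counts were deposited by the authors as whole reads per gene symbol, without normalisation. The deposited table of the authors' comparison holds log2 ratios and nominal and corrected p-values. HTSeq's non-gene counters (20.9% to 34.5% of a library's reads) were left out, as were 1499 symbols that the third Stra8-deficient table alone held and 269 held by the other 5 alone. Columns of samples not matched to a label numbered 0.

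Genes passing edgeR's filterByExpr were scaled by TMM (factors 0.796 to 1.27) and compared by edgeR's quasi-likelihood F test (edgeR 4.0.16, R 4.3.3; genotype as the only term; Benjamini-Hochberg adjustment over all tested genes, threshold 0.05). The SE is the size of the fold change over the square root of F. DESeq2 1.42.0 and limma 3.58.1 (voom with weights per genotype) were alternatives, with other scalings, no filter, a replicate block and each library left out. Levels per kb use the union exon length in GENCODE M21 (GRCm38), not the authors' annotation. Shares within families, compared after the values were seen, used exact permutation and covered only members with a large share in some library. Counting intervals (95%, exact binomial, between the pooled reads of the genotypes) and limits of 3 counts cover counting error only. Reads of antisense genes that GENCODE M21 places over Axin2, Fzd5, Fzd6, Sfrp2, Lef1, Tcf7l1, Wnt7b, Wnt11 and Rspo3 cannot be told apart. Any member could be named. From each pathway list outside the members, the called genes with the largest rise and fall were named if their mean log2 CPM reached 0 or more. Members and lists were chosen with earlier results of these data known.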

Additional observations from a re-analysis of the deposited data

How the results depend on the processing

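Calls were recomputed under 14 alternatives. The number of members called higher ranged from 15 to 21 and lower from 10 to 15 over all but the scaling to Sertoli markers, which gave 29 higher and 2 lower, and 58 higher and 1 lower among the other pathway genes; library size alone gave 16 lower among the latter. The cause was not tested. The sum of the 13 Sertoli genes differed 114 to 818 CPM among Stra8-deficient libraries. In the second of these Amh and Shbg had 0 reads and Cldn11 had 2. Sertoli scaling used the geometric mean of the 13 genes, not their sum, so genes with few reads weighed as much as abundant ones. It turned Fzd1 (2.16), Fzd4 (3.36), Fzd5 (3.22), Fzd6 (2.40), Fzd8 (0.36), Fzd9 (1.94), Lef1 (0.56), Lgr4 (2.97), Lgr6 (2.69), Lrp5 (0.35), Wnt2 (1.52), Wnt2b (1.71), Wnt5a (3.15), Wnt6 (1.04), Csnk1g2 (0.11), Ctbp2 (1.20) and Porcn (1.42) above 0. Library size alone turned Fzd4 (0.41), Fzd5 (0.16), Lgr4 (0.03) and Wnt5a (0.37), and upper-quartile factors Fzd4 (0.07) and Wnt5a (0.03). Wnt5b changed sign with RLE size factors (-0.08), in DESeq2 (-0.08) and without the first (-0.04) or the third (-0.09) Stra8-deficient library, and ranged from -0.09 to 0.15 with 1 library left out. Axin1 (-0.03 to 0.31) and Axin2 (-0.15 to 0.40) changed sign without the first Stra8-deficient library. With 1 library left out, members called numbered 26 to 31, with 15 to 17 higher and 11 to 15 lower, and the other pathway genes 24 to 29 higher and 22 to 29 lower; each such fit compared 2 libraries with 3. Replicate numbers do not pair the samples: deviations of same-numbered libraries correlated at -0.040 to 0.080 over genes, and not every library correlated best with its own number. With the replicate block 17 members were called higher and 14 lower, Lgr6 (-1.01) gained and Lgr4 (-0.59) lost. Depth left 14 members untested.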
